A study of Mus musculus with 19 samples.

Results

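The genes described here are 10 genes of neutrophils and mast cells, mainly of their granules, of 55740 distinct gene identifiers in the series. They were taken by symbol: *Slpi*, *S100a8*, *S100a9* and *Lcn2* are 4 genes of neutrophils, and *Mcpt1*, *Mcpt2*, *Mcpt4*, *Cma1*, *Cpa3* and *Kit* are 6 genes of mast cells. The set was chosen by its inguinal white adipose tissue (iWAT) values, because *Slpi*, *Mcpt2* and *S100a8* rank 1, 3 and 6 by the log2 difference between MCK-Musclin and WT mice among 12197 genes whose FPKM averaged 1 or more. FPKM, the unit of all levels, counts fragments relative to the exon length of the gene and to the mapped fragments of the library. The genotype difference of these genes in iWAT is therefore a description and was given no test. Brown adipose tissue (BAT) and the 7-tissue series did not enter the choice. The other genes of both cell types were not named in it. Their lists were drawn up with earlier results of these data known, and in iWAT they share the libraries that chose the set. Values were found for all 10 genes in BAT and in the 7-tissue series, and for 9 in iWAT, where *Mcpt1* was not listed.

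The study asked how Musclin, a protein secreted by skeletal muscle and encoded by *Ostn*, acts on fat. RNA-Seq was done on iWAT and on BAT of 3 MCK-Musclin and 3 WT control mice each, all kept at 8 °C for 1 week, and on 7 tissues of C57BL/6J WT mice on chow diet with 1 library per tissue and no replicate. The mice were male and on chow diet, and those used for iWAT and BAT were 5 months old. MCK-Musclin mice carry the full Musclin coding sequence behind the 4.8-kb promoter of muscle creatine kinase, a promoter of skeletal muscle, on a C57BL/6J background, and the founder line used is not given in the sources used here. Mice kept warm were not analysed here, so the effect of cold was not measured. The 3 libraries per group came from independent animals.

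Neutrophils are short-lived phagocytes that store antimicrobial proteins and proteases in granules and release them at sites of injury or infection. Mast cells live in tissues, depend on the KIT receptor and fill their granules with proteases, histamine and heparin. Their proteases differ by place: in mice the mucosal type, found in the gut, holds the chymases MCPT1 and MCPT2, and the connective tissue type, found in skin and around vessels, holds MCPT4, the chymase encoded by *Cma1*, tryptase and carboxypeptidase A3. Adipose tissue is known to hold connective tissue mast cells, while neutrophils are normally scarce in it.

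The libraries were checked first. *Ostn* was listed at 0 in the 3 WT BAT libraries and had 37.9, 31.6 and 30.4 FPKM in the 3 MCK-Musclin ones. In iWAT it had 0, 0 and 0.225 FPKM in WT and 0, 5.17 and 4.21 FPKM in MCK-Musclin mice. The library labelled MCK-Musclin 1 of iWAT therefore does not show the transgene, and it is also at 0 for *Ckm*, the muscle gene whose promoter drives it, so *Ostn* does not check its label and values are given below without it. The skeletal muscle markers summed to between 7.26 and 2076 FPKM in the WT libraries of iWAT, highest in library 3, and to between 5.51 and 85.9 in the MCK-Musclin ones. Summed B cell markers ran from 135 to 259 FPKM in WT and from 292 to 387 in MCK-Musclin iWAT, and the 7 lymph node markers from 181 to 371 and from 404 to 626 FPKM. Their part in the results for the chosen genes was not tested. In bulk tissue, more cells of a type and more RNA per cell cannot be told apart.

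Among the genes of neutrophils, *Slpi*, which encodes the secretory leukocyte protease inhibitor that blocks neutrophil elastase and is also made by epithelia, had the largest log2 difference between the genotypes in iWAT with a pseudocount of 1, while *S100a8* had the larger one with 0.1 (3.02 against 2.97) and the larger ratio of group means (6.26 against 5.84). It had 3.50, 0.398 and 0.642 FPKM in WT libraries 1 to 3 and 6.17, 8.37 and 11.95 FPKM in MCK-Musclin libraries 1 to 3. The lowest MCK-Musclin library was above the highest WT library, which was library 1. The group means were 1.51 ± 1.72 and 8.83 ± 2.92 FPKM (SD, n = 3), a log2 difference of 2.13 on the scale of mean log2(FPKM + 1), on which all differences below are given. The difference was 2.34 without the library labelled MCK-Musclin 1 and 2.66 without WT library 1. *Slpi* lies at chr2:164354070-164389095 (GRCm38, minus strand), and its exons overlap those of *Mir7678*, so reads of either could be counted for the other. Epithelia and keratinocytes are another known source of *Slpi*, and not the only other one possible. Their summed markers were between 3.76 and 8.75 FPKM in WT and between 4.03 and 6.40 FPKM in MCK-Musclin iWAT, where *Krt14* and *Krt1* were not listed. Of these markers *Epcam*, an epithelial adhesion molecule, had 1.13, 0.536 and 0.900 FPKM in WT and 1.55, 1.38 and 1.77 FPKM in MCK-Musclin iWAT. Its groups did not overlap and the log2 difference was 0.48. It reached the mean of 1 FPKM through the MCK-Musclin group alone and is described without a test. It was the only 1 of the 8 markers listed that was higher in MCK-Musclin iWAT, and the median difference of the 8 was -0.17. *Krt18*, *Krt8*, *Krt19* and *Krt5* differed by -0.42, -0.33, -0.30 and -0.29. The part of epithelial cells in the *Slpi* values was not tested.

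*S100a8* and *S100a9* encode the 2 subunits of calprotectin, the calcium- and zinc-binding protein that fills the neutrophil cytosol. They lie 22.6 kb apart on chromosome 3, *S100a8* at chr3:90668978-90670035 (plus strand) and *S100a9* at chr3:90692632-90695721 (minus strand). In iWAT, *S100a8* had 1.49, 0.410 and 0 FPKM in WT and 3.48, 6.73 and 1.69 FPKM in MCK-Musclin libraries. The groups did not overlap, but the highest WT and the lowest MCK-Musclin library were only 1.49 and 1.69 FPKM, and the log2 difference was 1.58. *S100a9* had 2.58, 1.60 and 0.718 FPKM in WT and 2.63, 5.77 and 1.57 FPKM in MCK-Musclin libraries. Its groups overlapped, since MCK-Musclin library 3 was below WT libraries 1 and 2, and its log2 difference of 0.66 was less than that of its partner gene. The value was 0.28 without MCK-Musclin library 2 and 0.38 without WT library 3. Both genes were highest in MCK-Musclin library 2 and lowest in WT library 3.

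*Lcn2* encodes lipocalin 2, a siderophore-binding protein of neutrophil specific granules that adipocytes and hepatocytes also secrete. It had 2.10, 0.690 and 0.690 FPKM in WT and 1.72, 2.31 and 1.75 FPKM in MCK-Musclin iWAT. WT library 1 was above MCK-Musclin libraries 1 and 3, so the groups overlapped, and the log2 difference was 0.49, or 0.79 without WT library 1. *Lcn2* lies at chr2:32384633-32388252 (minus strand).

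**Figure D1:**
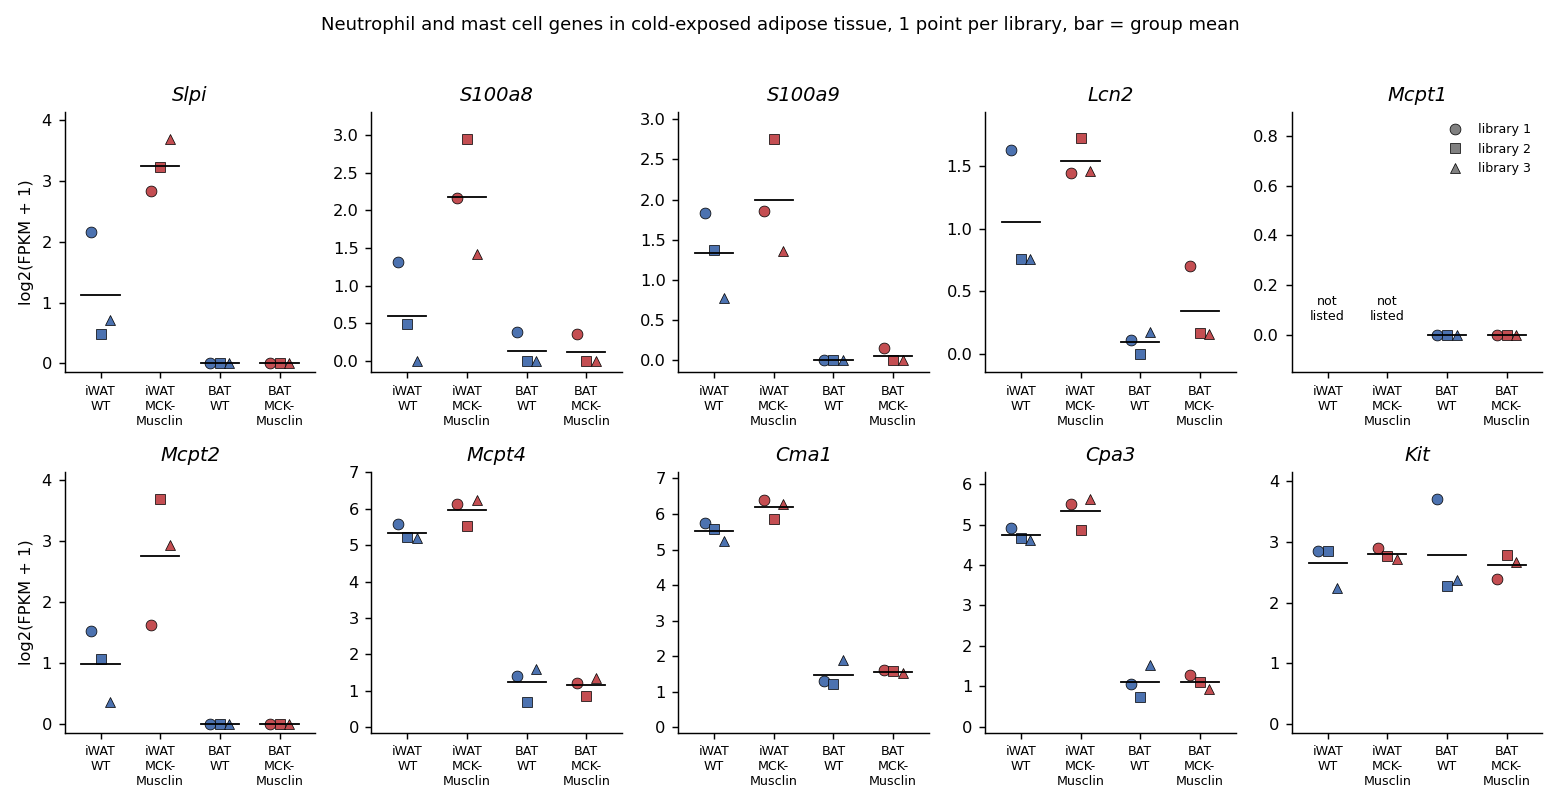
Level of each of the 10 genes on the scale log2(FPKM + 1) in the 3 WT (blue) and 3 MCK-Musclin (red) libraries of cold-exposed iWAT and BAT, with 1 point per library, its shape giving the library number and the bar the group mean. *Slpi* ran from 6.17 to 11.95 FPKM in MCK-Musclin iWAT and is listed at 0 in all 6 BAT libraries, and the axes differ between panels.

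The mast cell genes differed in how they were spread over the libraries. *Mcpt2*, the mucosal-type chymase, had 1.88, 1.09 and 0.277 FPKM in WT and 2.08, 11.9 and 6.65 FPKM in MCK-Musclin iWAT. MCK-Musclin libraries 2 and 3 stood far above the rest, while MCK-Musclin library 1 was close to WT library 1, and the log2 difference of 1.77 became 2.33 without the former. The group means were 1.08 ± 0.803 and 6.88 ± 4.92 FPKM (SD, n = 3).

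The connective tissue genes were the most abundant of the set in iWAT. *Cma1*, the chymase gene, had 53.0, 46.9 and 37.0 FPKM in WT and 83.9, 56.7 and 77.5 FPKM in MCK-Musclin libraries. Its groups did not overlap, the means were 45.6 ± 8.04 and 72.7 ± 14.2 FPKM (SD, n = 3), and the log2 difference was 0.66. *Mcpt4*, the other connective tissue chymase, had 46.4, 36.7 and 35.5 FPKM in WT and 69.1, 45.5 and 75.3 FPKM in MCK-Musclin libraries. *Cpa3*, at chr3:20215620-20242181 (minus strand), which encodes the carboxypeptidase that trims peptides in the granule, had 29.0, 24.6 and 23.4 FPKM in WT and 44.2, 28.2 and 48.2 FPKM in MCK-Musclin libraries. In both genes MCK-Musclin library 2 fell below WT library 1, so that the groups overlapped, and the log2 differences were 0.64 and 0.60. MCK-Musclin library 2 was thus the lowest of its group for all 3 connective tissue genes and the highest of its group for *Mcpt2*, *S100a8*, *S100a9* and *Lcn2*.

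*Kit*, at chr5:75574916-75656722 (plus strand), encodes the receptor of stem cell factor on which mast cells depend. It had 6.22, 6.24 and 3.72 FPKM in WT and 6.50, 5.79 and 5.61 FPKM in MCK-Musclin iWAT. The groups overlapped and the log2 difference was 0.15, which turned to -0.06 without WT library 3. Its ligand gene *Kitl* was between 9.94 and 12.4 FPKM in the 6 libraries.

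All 9 genes averaged 1 FPKM or more over the 6 libraries, *S100a8* through the MCK-Musclin group alone. Over the 9 genes, every MCK-Musclin library was above every WT library in 4, namely *Slpi*, *Mcpt2*, *S100a8* and *Cma1*, against 17.9% of all genes tested in that direction. The choice of genes used this contrast, so nothing is read from the count. WT library 1 was the highest WT library for 8 of the 9 genes and WT library 3 the lowest for 8 of 9. Without WT library 1 the count was 7 of 9, and without the library labelled MCK-Musclin 1 it was 4 of 9. With 1 library fewer, groups part more easily, and the share over all genes was not measured. Nothing is read from these counts either. Without the library labelled MCK-Musclin 1 the log2 differences were 1.58 for *S100a8*, 0.73 for *S100a9*, 0.57 for *Mcpt4*, 0.54 for *Cma1* and *Lcn2*, 0.51 for *Cpa3* and 0.09 for *Kit*.

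The 3 connective tissue genes kept nearly fixed proportions in iWAT. *Mcpt4* was between 1.49 and 1.61 times *Cpa3* in FPKM in all 6 libraries, while the level of *Cpa3* itself ran from 23.4 to 48.2 FPKM. *Cma1* was between 1.58 and 2.01 times *Cpa3*. The tryptase gene *Tpsb2*, which the choice of genes did not use, was between 0.616 and 0.847 times *Cpa3*. In BAT the levels were near 1 FPKM and the proportions were wider, from 0.724 to 1.74 for *Mcpt4* and from 1.39 to 2.07 for *Cma1*. These ratios share the library and its scaling and are a description.

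**Figure D2:**
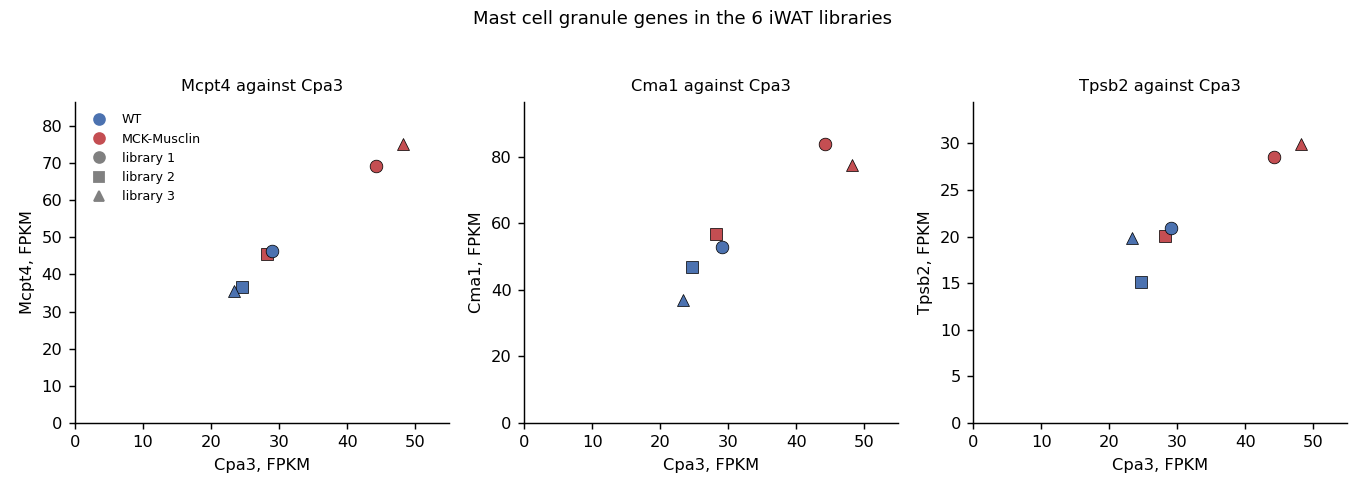
FPKM of *Mcpt4*, *Cma1* and *Tpsb2* (vertical axes) against that of *Cpa3* (horizontal axis, FPKM) in the 6 cold-exposed iWAT libraries, blue for WT and red for MCK-Musclin, with the shape giving the library number. The points for *Mcpt4* lie close to a straight line through the origin, at 1.49 to 1.61 times *Cpa3*, and MCK-Musclin library 2 lies with the WT libraries.

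The 4 chymase genes lie within 120.9 kb of each other on chromosome 14, measured from the first to the last of them. That span holds 6 protein-coding genes, *Cma1*, *Cma2*, *Mcpt1*, *Mcpt9*, *Mcpt2* and *Mcpt4*. *Cma1* is at chr14:55941451-55944675 (minus strand), *Mcpt1* at chr14:56017971-56020384 (plus strand), *Mcpt2* at chr14:56042041-56044642 (plus strand) and *Mcpt4* at chr14:56059629-56062313 (minus strand). Their transcripts are much alike: *Mcpt1* and *Mcpt4* share 85.6% of aligned bases, *Mcpt1* and *Mcpt2* 82.2%, and *Mcpt2* and *Mcpt4* 79.9%. Since reads of near-identical copies may be split, every stretch of 50 bases of each transcript was looked for in the transcripts of all other genes. Of the *Mcpt4* stretches 5.48% were shared, all with *Cma2*, and some also with *Mcpt9*, and of the *Cma1* stretches 5.38% were shared with *Gm48934*. *Mcpt1*, *Mcpt2* and the other 6 genes shared none. *Mcpt9* is listed at 0 in all 6 BAT libraries and is not listed in iWAT. The part of shared reads in the iWAT values of *Mcpt4* and *Cma1* was not tested.

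The upstream sequences of 4 mast cell protease genes are shown because the genes differ in where they were found while *Mcpt1* and *Mcpt4* are close copies. Each is the 250 bases before the RefSeq start site (GRCm38.p6), 5′ to 3′ on the strand of the gene, at chr14:56017714-56017963 (plus) for *Mcpt1*, chr14:56062311-56062560 (minus) for *Mcpt4*, chr14:55944676-55944925 (minus) for *Cma1* and chr3:20242182-20242431 (minus) for *Cpa3*. Capitals mark GATAA, the core of the motif bound by GATA factors, or TTATC, the same letters read on the other strand.
Mcpt1: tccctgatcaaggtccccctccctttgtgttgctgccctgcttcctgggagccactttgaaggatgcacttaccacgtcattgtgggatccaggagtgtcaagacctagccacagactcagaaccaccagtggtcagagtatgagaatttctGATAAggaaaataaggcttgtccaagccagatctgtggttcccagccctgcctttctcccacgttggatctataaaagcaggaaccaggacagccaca
Mcpt4: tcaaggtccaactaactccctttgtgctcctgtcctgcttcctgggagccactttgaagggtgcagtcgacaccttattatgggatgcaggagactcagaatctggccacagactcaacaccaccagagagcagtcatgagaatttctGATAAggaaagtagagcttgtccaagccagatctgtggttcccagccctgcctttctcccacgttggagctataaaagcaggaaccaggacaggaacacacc
Cma1: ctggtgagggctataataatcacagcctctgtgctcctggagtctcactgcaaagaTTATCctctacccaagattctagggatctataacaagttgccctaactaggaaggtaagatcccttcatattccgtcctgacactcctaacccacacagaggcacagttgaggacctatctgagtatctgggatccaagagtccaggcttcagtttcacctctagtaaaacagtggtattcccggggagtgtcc
Cpa3: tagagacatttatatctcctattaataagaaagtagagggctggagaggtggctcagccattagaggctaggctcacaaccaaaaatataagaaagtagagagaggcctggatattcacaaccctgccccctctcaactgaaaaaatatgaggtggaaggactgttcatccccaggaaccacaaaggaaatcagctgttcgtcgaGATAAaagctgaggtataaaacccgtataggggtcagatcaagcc
*Mcpt1* and *Mcpt4* were identical at 209 of 242 aligned upstream bases, or 86.4%. Each of the 4 sequences held 1 GATAA, starting at position -98 in *Mcpt1*, -102 in *Mcpt4*, -45 in *Cpa3* and, on the other strand, -194 in *Cma1*, counted back from the start site. On either strand, GATAA was in 22.6% of the 32851 RefSeq promoter windows of that length. Of the 9 genes with an entry, 6 held it, the other two being *Slpi* and *S100a9*, and *S100a8*, *Lcn2* and *Kit* did not. The E-box letters CANNTG were in 5 of the 9 and in 66.2% of all windows, and TTNNGNAA, or TTNCNNAA on the other strand, the letters of C/EBP sites, were in 4 of the 9 and in 36.8% of all windows, and in 0 of the 4 mast cell proteases. These matches are descriptions of letters and not of bound sites. *Mcpt2* was not matched.

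In the 7 tissues these neighbours parted. *Mcpt1* and *Mcpt2* were found in the small intestine alone, with 2.61 and 1.96 FPKM, and were listed at 0 in the other 6 tissues. *Mcpt4* had 5.34 FPKM in white adipose tissue, 1.57 in tibialis anterior muscle, 0.525 in brown adipose tissue and 0.103 in heart, and *Cma1* had 5.25 in white adipose tissue, 0.951 in brown adipose tissue, 0.206 in heart and 0.156 in tibialis anterior muscle. Both were listed at 0 in the small intestine, the liver and the brain. *Cpa3* had 3.57 FPKM in white adipose tissue, 1.20 in brown adipose tissue, 0.196 in heart, 0.194 in tibialis anterior muscle and 0.171 in the small intestine, and was listed at 0 in the liver and the brain. White adipose tissue thus held 80.0% of the *Cma1*, 70.8% of the *Mcpt4* and 67.0% of the *Cpa3* FPKM summed over the 7 tissues. *Mcpt2*, which was at 0 in this library, was above 0 in all 6 cold-exposed iWAT libraries; the depot of the white adipose library is not given, and the tables were normalized separately.

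*Kit* was spread most widely, with 6.67 FPKM in brain, 5.51 in brown adipose tissue, 3.49 in white adipose tissue, 3.42 in the small intestine, 2.65 in liver, 0.723 in heart and 0.118 in tibialis anterior muscle. Besides mast cells it is expressed by melanocytes, germ cells, pacemaker cells of the gut and some neurons, so its level is not specific to mast cells.

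Of the neutrophil genes, *Slpi* had 6.50 FPKM in white adipose tissue, 2.54 in the small intestine and 0.191 in liver and was listed at 0 in the other 4 tissues, brown adipose tissue included. *Lcn2* had 5.37 FPKM in liver, 3.93 in white adipose tissue, 1.55 in the small intestine, 0.441 in heart and 0.242 in brown adipose tissue. *S100a8* had 0.545 FPKM in brown adipose tissue and 0.0915 in liver, and *S100a9* was listed at 0 in all 7. *Slpi* was thus at its highest in a white adipose library in which both calprotectin genes were listed at 0. That 6.50 FPKM lay above the range of cold-exposed WT iWAT, 0.398 to 3.50 FPKM. It lay within the range of MCK-Musclin iWAT, 6.17 to 11.95 FPKM. The depot of the white adipose library is not given, and the tables were normalized separately. The labels of the tissues were matched by *Ckm* with 3969 FPKM in tibialis anterior muscle, *Myh6* with 14088 in heart, *Alb* with 22399 in liver, *Snap25* with 4072 in brain, *Vil1* with 443 in the small intestine, *Ucp1* with 467 in brown and *Adipoq* with 1699 in white adipose tissue. With 1 library per tissue the order of neighbouring levels has no replicate check.

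**Figure D3:**
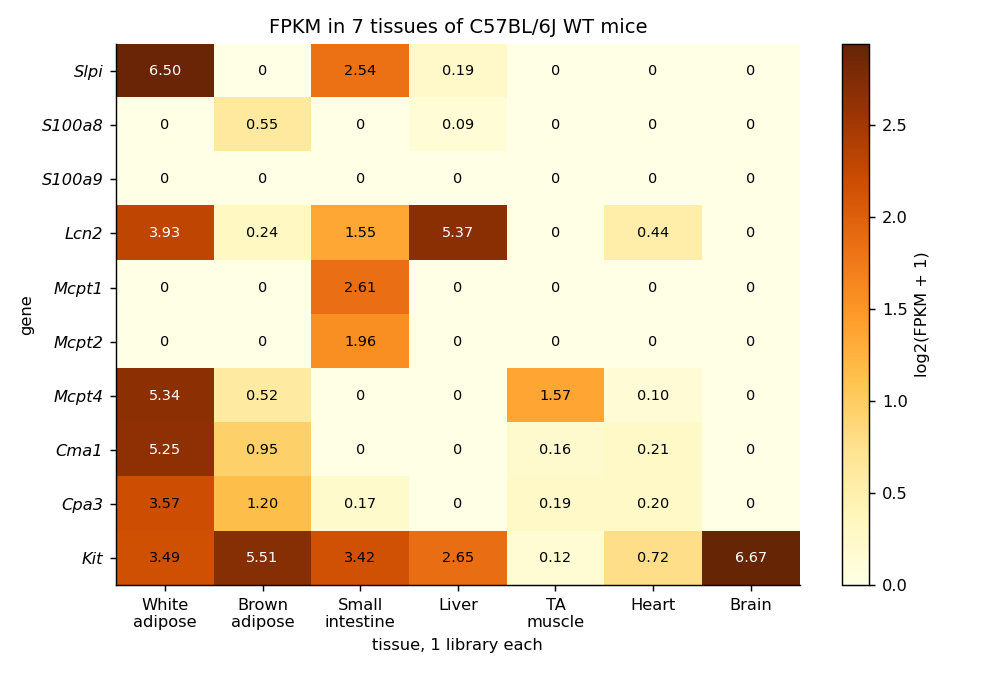
FPKM of the 10 genes (rows) in 7 tissues of C57BL/6J WT mice (columns, 1 library each), with the value printed in each cell and the shade giving log2(FPKM + 1). *Mcpt1* and *Mcpt2* are above 0 in the small intestine alone, while *Mcpt4*, *Cma1* and *Cpa3* are highest in white adipose tissue.

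Likeness over the 7 tissues was measured by Pearson's r of log2(FPKM + 1) among 18327 genes with at least 1 FPKM in a tissue. The 3 genes most like *Slpi* were *3300005D01Rik* (r = 0.997), *Ffar2*, which encodes a short-chain fatty acid receptor (0.993), and *Cxcl2*, which encodes a neutrophil-attracting chemokine (0.992). Those most like *Cpa3* were *Retnla*, a resistin-like protein gene (0.992), *Hoxd8* (0.991) and *Gm47533* (0.991). For *S100a8* they were *Gm27477* (0.983), *Gm21982* (0.981) and *Gm12571* (0.980). For *Mcpt2* 600 genes had r above 0.99, all following a pattern of near absence outside the small intestine, so that *Clec2g*, *Gcg* and *Ap1m2* lead only by a tie. These r values rest on 7 libraries, mostly on 1 or 2 high points.

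In BAT, which did not enter the choice, *Slpi*, *Mcpt1* and *Mcpt2* were listed at 0 in all 6 libraries. *S100a8* had 0.307 FPKM in WT library 1 and 0.283 in MCK-Musclin library 1 and was listed at 0 in the other 4. *S100a9* was above 0 in MCK-Musclin library 1 alone, at 0.114 FPKM. *Lcn2* had 0.0765, 0 and 0.125 FPKM in WT and 0.622, 0.123 and 0.113 FPKM in MCK-Musclin BAT. These 6 genes lay under the mean of 1 FPKM set for testing. MCK-Musclin library 1 was the highest or next highest library for each of the 3 that were detected.

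The 4 genes that could be tested in BAT are all of mast cells, and none passed the cutoff of an unadjusted p under 0.05 with a log2 difference over 0.3 in size. Of all 10893 BAT genes tested, 1.85% passed it as higher and 2.15% as lower in MCK-Musclin mice. *Cma1* had 1.48, 1.33 and 2.69 FPKM in WT and 2.04, 1.99 and 1.87 FPKM in MCK-Musclin libraries, a log2 difference of 0.09 (SE 0.19, 95% interval -0.35 to 0.54, limma with Benjamini-Hochberg adjusted p = 0.987). *Mcpt4* had 1.68, 0.617 and 2.05 FPKM in WT and 1.32, 0.820 and 1.57 FPKM in MCK-Musclin libraries, a difference of -0.09 (SE 0.26, interval -0.70 to 0.51, limma adjusted p = 0.988). For both genes the MCK-Musclin libraries lay within the range of the WT libraries.

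*Cpa3* had 1.07, 0.671 and 1.86 FPKM in WT and 1.40, 1.13 and 0.903 FPKM in MCK-Musclin BAT, a log2 difference of -0.01 (SE 0.21, interval -0.51 to 0.50, limma adjusted p = 0.999). *Kit* had 12.1, 3.83 and 4.19 FPKM in WT and 4.22, 5.90 and 5.36 FPKM in MCK-Musclin BAT, a difference of -0.17 (SE 0.36, interval -1.02 to 0.67, limma adjusted p = 0.987). WT library 1 alone set the *Kit* mean of its group, and the difference was 0.29 without it. In each of the 4 genes the groups overlapped, against 4.38% of BAT genes with every MCK-Musclin library above and 5.63% with every one below the WT libraries. The intervals of all 4 genes include a log2 difference of 0.3, the cutoff in BAT, in either direction. Those of *Mcpt4* and *Kit* also include 0.5 in either direction. Whether the genotype difference itself differed between the depots was not tested.

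The connective tissue genes stood much higher in iWAT than in BAT in both genotypes. *Cma1*, *Mcpt4* and *Cpa3* summed to 128, 108 and 95.9 FPKM in WT and 197, 130 and 201 FPKM in MCK-Musclin iWAT, and to 4.23, 2.62 and 6.60 FPKM in WT and 4.77, 3.95 and 4.34 FPKM in MCK-Musclin BAT. The highest BAT library, at 6.60 FPKM, was below the lowest iWAT library, at 95.9 FPKM. The WT medians stood in a ratio of 25.6, or 50.2 after rescaling each library to TPM. That rescaling divides by the FPKM sum of the genes listed, 13756 in iWAT and 55487 in BAT. The ratio of 50.2 is therefore not on a like basis between the depots. *Kit* was between 3.72 and 6.50 FPKM in iWAT and between 3.83 and 12.1 FPKM in BAT, so its ranges overlapped. The tables of the depots were normalized separately and RNA was extracted by a kit from iWAT and with TRIzol from BAT, so depot and handling cannot be told apart, and no test was made.

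The other genes of both cell types were examined in iWAT with the cutoff of an unadjusted p under 0.05 and a log2 difference over 0.5 in size, which 5.04% of the 12197 genes passed as higher and 0.902% as lower in MCK-Musclin mice. They belong to the cell types chosen by this same contrast in the same libraries, so their counts are no independent check. Of 28 other neutrophil genes 16 were listed in iWAT and 14 could be tested. Of these 14, 4 were higher and 0 lower, with a median log2 difference of 0.48 against 0.06 over all genes. One of the 4, *Ngp*, reached the mean of 1 FPKM through the MCK-Musclin group alone and is described without a test. Without it 3 of 13 were higher, with a median of 0.45. *Cxcr2*, the receptor for neutrophil-attracting chemokines, had 2.102, 1.503 and 1.73 FPKM in WT and 3.43, 3.50 and 5.25 FPKM in MCK-Musclin iWAT, a log2 difference of 0.85 (SE 0.17, limma adjusted p = 0.143), with no overlap between groups. *Ngp*, a protein of neutrophil granules, had 0.459, 0.114 and 1.06 FPKM in WT and 5.22, 7.59 and 0.846 FPKM in MCK-Musclin iWAT, a difference of 1.63. Like *S100a8* and *S100a9* it was highest in MCK-Musclin library 2 and lowest of its group in library 3, which lay within the WT range. *Ncf1* and *Ncf4*, subunits of the phagocyte NADPH oxidase that macrophages and B cells also express, differed by 0.51 (SE 0.11) and 0.72 (SE 0.18), with limma adjusted p of 0.143 and 0.150.

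The defining neutrophil markers were only in part present. Of the 12, *Ly6g*, *Mpo*, *Elane*, *Camp*, *Mmp8*, *Retnlg* and *Cd177* were not among the genes listed for iWAT. How genes were selected for that list is not given in the sources used here. The other 5 summed to between 8.12 and 11.03 FPKM in WT and between 16.6 and 18.7 FPKM in MCK-Musclin libraries. Of these 5, *Cxcr2* alone had groups that did not overlap, *Ltf* had 1.30, 0.250 and 1.91 FPKM in WT and 2.67, 1.61 and 0.777 FPKM in MCK-Musclin libraries, and *Prtn3* had a log2 difference of -0.16. The sum over the other neutrophil genes listed overlapped, at 316 to 433 FPKM in WT and 382 to 448 FPKM in MCK-Musclin iWAT. *Csf3r*, the receptor of granulocyte colony-stimulating factor, differed by 0.54 (SE 0.30, limma adjusted p = 0.409) and did not pass. In BAT the 12 markers summed to at most 0.755 FPKM, with *Ly6g*, *Mpo* and *Camp* at 0 in all 6 libraries.

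Of 23 other mast cell genes 15 could be tested in iWAT; 3 were higher and 0 lower, with a median log2 difference of 0.25. *Fcer1a*, the alpha chain of the high-affinity IgE receptor, had 1.94, 0.877 and 0.849 FPKM in WT and 2.97, 1.86 and 3.48 FPKM in MCK-Musclin iWAT, a difference of 0.77 (SE 0.24, limma adjusted p = 0.196). The others were *Gzmb*, the granzyme that cytotoxic lymphocytes also express (0.59, SE 0.19, limma adjusted p = 0.211), and *Serpinb1a*, an inhibitor of neutrophil proteases (0.72, SE 0.18, limma adjusted p = 0.153). *Tpsb2* had 20.9, 15.2 and 19.8 FPKM in WT and 28.6, 20.05 and 29.98 FPKM in MCK-Musclin libraries and a difference of 0.46 (SE 0.18, limma adjusted p = 0.273), under the cutoff. As in *Mcpt4* and *Cpa3*, MCK-Musclin library 2 fell below WT library 1. The 7 defining mast cell markers were all listed and summed to between 19.9 and 27.7 FPKM in WT and between 25.7 and 40.7 FPKM in MCK-Musclin iWAT, so that the groups overlapped.

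The 7 genes that passed, *Ngp* included, of the 29 tested in both lists, became 14 of 29 when WT library 1 was left out. They were 4 of 30 without WT library 2, 11 of 31 without MCK-Musclin library 2 and 5 of 29 without the library labelled MCK-Musclin 1. Over all genes, 844 of 12216 were higher and 213 lower without WT library 1. In the other cases, in that order, 533 and 117 of 12210, 664 and 130 of 12178, and 699 and 178 of 12182 were. Genes that reach the mean of 1 FPKM through 1 group alone were not set aside in these counts. With all 6 libraries, no iWAT gene had an adjusted p under 0.05 by limma, the smallest being 0.0912, while 2012 had an unadjusted p under 0.05. In the same fit all 7 lymph node genes, 6 of 6 B cell genes, 4 of 6 T cell genes and 1 of 7 macrophage genes (*Cd68*) passed as higher. None of the 8 adipocyte, 5 erythrocyte, 5 skeletal muscle and 2 epithelial genes averaging 1 FPKM or more passed, and 3 of 4 brown fat genes (*Cidea*, *Ucp1* and *Cox7a1*) passed as lower. *Madcam1* of the lymph node genes and *Epcam* of the epithelial ones reached that mean through the MCK-Musclin group alone. In BAT 10 of the other genes could be tested and 1 passed, *Hp*, which encodes haptoglobin and is also made by adipocytes and hepatocytes. It had 59.6, 59.5 and 59.2 FPKM in WT and 87.8, 83.2 and 70.8 FPKM in MCK-Musclin libraries, a difference of 0.43 (SE 0.10, limma adjusted p = 0.929). In the BAT fit 4 of 5 skeletal muscle, 3 of 5 erythrocyte and 1 of 7 macrophage genes (*Csf1r*) passed as higher and none of the 8 adipocyte, 4 brown fat and 1 testable lymph node genes did; no B cell, T cell or epithelial gene reached a mean of 1 FPKM there.

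**Figure D4:**
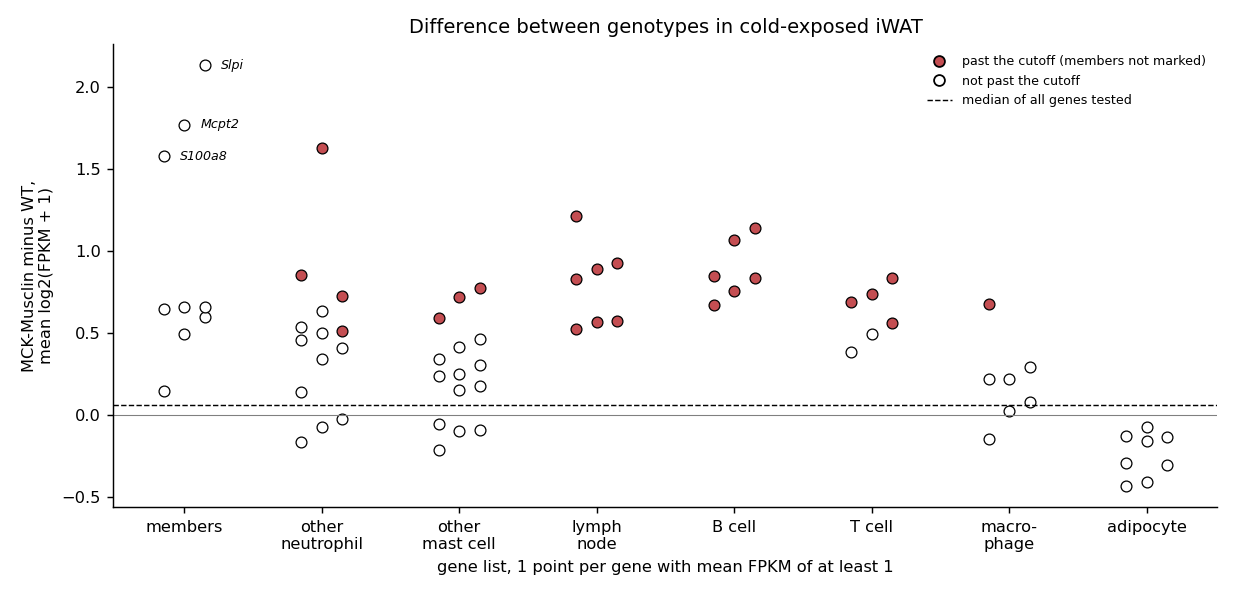
Difference between MCK-Musclin and WT mice in mean log2(FPKM + 1) in cold-exposed iWAT (vertical axis), with 1 point per gene of at least 1 FPKM on average, by gene list. Filled points passed the cutoff and the dashed line is the median of all genes, 0.06. *Ngp*, at 1.63, and *Madcam1*, at 0.57, are filled but reached that average through the MCK-Musclin group alone. The 9 chosen genes are shown unmarked because the contrast chose them, the lymph node and B cell lists lie above 0.5, and no adipocyte gene lies above 0.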

How the data were processed

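RNA-Seq of 19 mouse libraries was analysed, 7 of single tissues and 12 of cold-exposed iWAT and BAT, grouped as the labels give them. Per the study, poly(A) RNA was sequenced, reads were cleaned by fastp and bowtie2 and mapped by HISAT2 2.1.0 to GRCm38 (mm10) with an unstranded setting, and FPKM for each gene in each library was deposited by the authors. The study names StringTie for the FPKM, while the submitters' processing notes name Cuffdiff, so the tool, and with it the handling of reads shared between genes, is uncertain. FPKM corrects for length and library total, so a few very abundant genes lower all others. The deposited tables list 55573, 55487 and 13756 genes for the 7 tissues, BAT and iWAT, with FPKM sums of 393682 to 711437, 676362 to 720852 and 364710 to 384104, and 287 lines that repeat a gene in each of the former 2 tables were used once. How genes were selected for the iWAT table is not given in the sources used here. That table also holds the log2 fold change, p-value, FDR and group means of the authors' own comparison, which were not used. The number of reads is not given. Judged by the size of 1-read steps among low values, depth was 0.889 to 1.11 times that of WT library 1 in BAT and 0.943 to 1.09 times that of brain in the other 6 tissues, while that of iWAT could not be determined.

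The genotypes were compared within each table by limma 3.58.1 (lmFit, eBayes with a trend; R 4.3.3) on log2(FPKM + 1), for genes averaging 1 FPKM or more over the 6 libraries, with Benjamini-Hochberg adjustment over the whole table, and the step was tested on simulated data. The cutoff was an unadjusted p under 0.05 with a log2 difference over 0.5 in iWAT or 0.3 in BAT. The genes described, the gene lists and the rule for the genes named (the 10 genes, all list genes, the 3 genes most like *Slpi*, *S100a8*, *Mcpt2* and *Cpa3* over tissues, *Ostn*, and genes with overlapping exons) were chosen with earlier results of these data known. Genes that share reads with *Mcpt4* or *Cma1* were named after their values were seen. Lists for B cells, T cells, lymph node, macrophages, epithelia, erythrocytes, skeletal muscle, adipocytes, brown fat and tissue identity were measured beside those of neutrophils and mast cells. Positions are from GENCODE (GRCm38) and upstream sequences from RefSeq (GRCm38.p6), in which 9 of the 10 genes were matched. Python 3.11.15, pandas 2.3.3, Biopython and matplotlib were used. The alternatives were a pseudocount of 0.1, no filter, a mean FPKM of at least 5, TPM, median-ratio scaling, the replicate number as a block, eBayes without a trend, and leaving out each library in turn.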

Additional observations from a re-analysis of the deposited data

How the results depend on the processing

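In BAT none of the mast cell genes tested passed the cutoff under any alternative run, but the small differences there had no stable sign. *Cpa3* turned to 0.025 with a pseudocount of 0.1 and to 0.017 as TPM. When 1 library was left out, the BAT difference ran from -0.19 to 0.20 for *Cpa3* (above 0 without WT library 3 or MCK-Musclin library 3), from -0.43 to 0.29 for *Kit* (above 0 without WT library 1), from -0.37 to 0.091 for *Mcpt4* (above 0 without WT library 3 or MCK-Musclin library 2) and from -0.031 to 0.30 for *Cma1* (under 0 without WT library 2). In iWAT that of *Kit* ran from -0.056, without WT library 3, to 0.25. Of 113 alternative values of the 9 genes in iWAT, 110 kept their sign and moved by less than 1 SD between replicates. That SD was 0.71 for *Slpi* and 0.85 for *Mcpt2*. No filter, a mean FPKM of at least 5, the block and eBayes without a trend cannot change a difference. The count is therefore no measure of stability. With a pseudocount of 0.1 the log2 differences of *S100a8* and *Slpi* were 3.02 and 2.97. The count of genes whose groups did not overlap in iWAT, 4, was 2 of 5 genes at a mean FPKM of at least 5 and ran from 4 to 7 when 1 library was left out. The share over all genes was not measured for these settings. The 7 other neutrophil and mast cell genes past the cutoff in iWAT, *Ngp* included, were 3 of 13 tested at a mean FPKM of at least 5. Of all 8291 genes tested there, 433 were higher and 71 lower. The count ran from 4 to 14 when 1 library was left out, and in BAT it ran from 1 to 2. The summed connective tissue genes stood in a ratio of 25.6 between WT iWAT and WT BAT in FPKM and of 50.2 as TPM, an alternative chosen after seeing the data. The TPM of the depots were scaled over unlike lists of genes, so the 50.2 is not on a like basis. Of all iWAT genes past the cutoff, 615 were higher and 110 lower, against 605 and 201 as TPM and 426 and 187 with median-ratio scaling. In BAT these were 202 and 234, and 239 and 189 as TPM.

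With the replicate number as a block, the same 7 of the other genes passed in iWAT, *Ngp* included, and the same 1 in BAT. With that block none of the mast cell genes tested in BAT passed, while over all genes 620 were higher and 154 lower in iWAT and 214 and 246 in BAT. Deviations of libraries with the same number correlated by 0.23, 0.06 and 0.11 in iWAT and by -0.10, -0.005 and 0.009 in BAT. Libraries of unlike number correlated by -0.18 to 0.07 in iWAT, the highest being MCK-Musclin library 2 with WT library 3. Whether libraries of the same number share a batch is not given in the sources used here and was not tested. FPKM without read counts sets no limit of detection, and values under 1 FPKM rest on few reads. *Lcn2*, *S100a8* and *S100a9* entered the BAT fit without the filter on low values and did not pass the cutoff.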
